A study of Homo sapiens with 6 samples.

Results

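In Calu-3 cells, 1717 H3K27ac regions narrower than 8000 bp each overlapped 2 or more separate H3K4me1 regions, and these regions are the subject of this report. They are 4.96% of the 34638 H3K27ac regions called in these cells and hold 10.6% of all H3K27ac bases. A region was taken in when it shared at least 1 bp with each of its H3K4me1 regions. The regions were thus chosen by their H3K27ac width and by the number of H3K4me1 regions they met, and both are given below as a description only. EHF binding took no part in the choice.

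Calu-3 is an established human airway epithelial line grown from a lung adenocarcinoma, and all libraries came from these cells grown in low-glucose DMEM with serum, with no treatment given in the labels. Chromatin immunoprecipitation and sequencing (ChIP-seq) gave 2 replicate libraries of EHF, 1 of H3K4me1 and 1 of H3K27ac. A first input library served as the control for both EHF lists and a second input for both histone lists; the input libraries themselves were not analysed here. No label states if separate cultures gave the EHF replicates, and each mark has a single library, so that no value of a mark has a replicate check.

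H3K27ac is histone H3 acetylated at lysine 27, a mark that the acetyltransferases EP300 and CREBBP place at active enhancers and promoters. H3K4me1, histone H3 monomethylated at lysine 4, is placed mainly by KMT2C and KMT2D and is known from enhancers and from the flanks of promoters, where trimethylation takes its place close to the gene start. Both marks sit on nucleosomes, and transcription factors tend to bind in nucleosome-poor DNA between marked nucleosomes. EHF is an epithelial factor of the ETS family, which binds DNA through an ETS domain and is expressed in airway epithelium.

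The libraries held 8418631 to 21426939 tags per the file headers. The EHF replicates differed in yield: replicate 1 had 1537 peaks with 0.155% of its 10176290 tags in them, and replicate 2 had 5216 peaks with 0.740% of its 8418631 tags. Overlapping peaks of both replicates were merged into 1 site, which gave 5985 EHF sites of either replicate, of which 768 were shared by both. A site was placed by its centre. Densities are given as site centres per Mb with exact Poisson 95% intervals, shares with exact (Clopper-Pearson) 95% intervals, and ratios of densities with exact conditional binomial 95% intervals. All of these cover counting error only, since neighbouring sites of 1 library are not independent. Positions are those of build hg19; no sequence or gene annotation of that build was at hand, so the genes and sequences at these positions were not analysed here.

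Most of these H3K27ac regions held a pair of H3K4me1 regions. Of the 1717, 1498 (87.2%) held 2, 199 (11.6%) held 3, 19 held 4 and 1 held 5. In all they met 3670 distinct H3K4me1 regions, which is 11.5% of that list, and 4 of these touched 2 H3K27ac regions at once. The H3K27ac regions were 941 to 7987 bp wide with a median of 3739 bp. The 9788 regions under the same width limit with 1 H3K4me1 region had a median of 1611 bp, and the 22599 with none had 1126 bp. The score of an interval is the authors' normalized tag count, and per kb of width it had a median of 44.1 (quartiles 33.0 and 58.3) in the regions with several H3K4me1 regions, 28.9 in those with 1 and 26.0 in those with none. The H3K4me1 regions themselves were alike in regions with several and in regions with 1, with a median width of 641 bp against 639 bp and a median score per kb of 24 against 23.7.

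The width limit fell between regions of almost the same width. The widest region inside it, at 36324691 to 36332677 on chromosome 7, was 7987 bp wide with a score of 664 and 3 H3K4me1 regions. The narrowest outside it that met the same rule, at 65691335 to 65699339 on chromosome 14, was 8005 bp wide with a score of 526 and 2 H3K4me1 regions.

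The space between consecutive H3K4me1 regions of 1 H3K27ac region is called a gap here. There were 1957 gaps, 499 to 6608 bp wide, with a median of 1072 bp and quartiles of 732 and 1634 bp. By width, 882 gaps (45.1%) measured 500 to under 1000 bp, 763 (39.0%) 1000 to under 2000 bp and 310 (15.8%) 2000 bp or more, and 2 gaps were just under 500 bp. The lower end of this range is set by the peak caller: H3K4me1 was called in windows of 500 bp kept at least 1000 bp apart, per the file headers, so breaks narrower than about 500 bp cannot appear in the list. A gap lies wholly inside its H3K27ac region by construction, and says only that H3K4me1 did not pass the caller's thresholds there in a library of 12989646 tags.

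The gap tended to be the middle of the H3K27ac region. The rule favours this, since each gap has H3K4me1 of the same region on both sides, and no expected share was computed. A gap covered the centre of 1231 of the 1717 regions (71.7%), an H3K4me1 region covered it in 398 (23.2%), and in 88 (5.13%) the centre lay outside both. In regions with 2 H3K4me1 regions, the centre of the gap was a median of 8.36% of the H3K27ac width away from the H3K27ac centre. At 235 regions (13.7%) H3K4me1 ran past the H3K27ac region at both ends, at 692 (40.3%) at 1 end, and at 790 (46.0%) all H3K4me1 lay inside. By bases, the 6.90 Mb of these H3K27ac regions split into 2.61 Mb of gaps (37.8%), 2.66 Mb of H3K4me1 (38.5%) and 1.63 Mb of outer parts beyond the first and last H3K4me1 region (23.6%).

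EHF sites lay mainly in the gaps. Of the 364 EHF sites of either replicate inside these H3K27ac regions, 262 lay in a gap (72.0%, 95% interval 67.1% to 76.5%), 48 in an H3K4me1 region (13.2%, 9.89% to 17.1%) and 54 in an outer part (14.8%, 11.3% to 18.9%). Gaps and H3K4me1 regions offered almost the same number of bases. The density was 100.3 sites per Mb in gaps (88.5 to 113), against 18.1 per Mb in H3K4me1 regions (13.3 to 23.9). Per base, gaps thus held 5.56 times the EHF sites of H3K4me1 regions (95% interval 4.07 to 7.73; two-sided exact conditional binomial test, adjusted p = 2.2e-37 over 6 tests).

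Each EHF replicate gave the same order of the 3 parts. Replicate 1 had 86 sites in gaps, 16 in H3K4me1 regions and 20 in outer parts, which is 32.9, 6.02 and 12.3 per Mb. Replicate 2 had 236, 40 and 49 sites, or 90.4, 15 and 30.04 per Mb. The ratio of gap to H3K4me1 density was 5.47 in replicate 1 (3.19 to 9.999) and 6.01 in replicate 2 (4.28 to 8.62). For the 60 shared sites in gaps and the 8 in H3K4me1 regions it was 7.63 (3.64 to 18.5). These intervals overlap, and 1 input library served as the background of both.

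**Figure D1:**
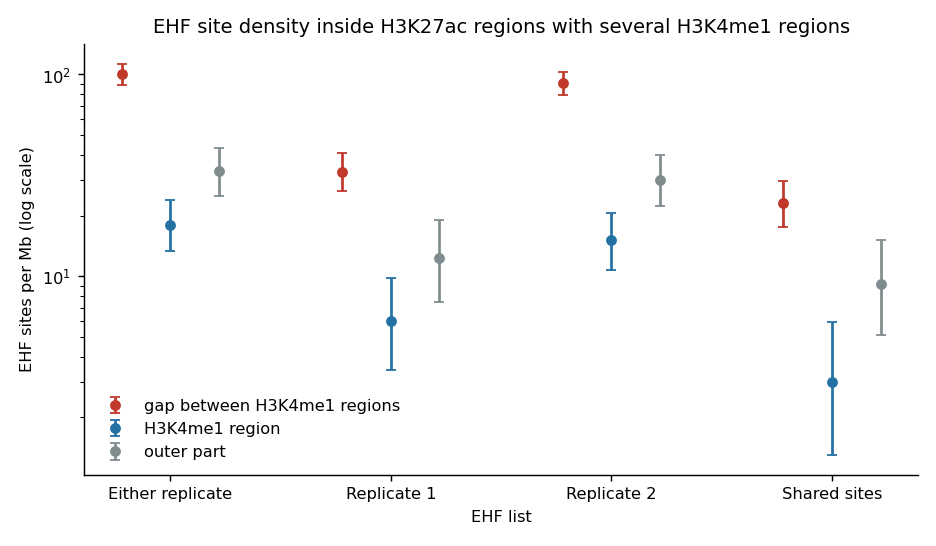
EHF sites per Mb (log scale) in the gaps, the H3K4me1 regions and the outer parts of the 1717 H3K27ac regions, for sites of either replicate, each replicate and shared sites; points are densities and bars exact Poisson 95% intervals. In all 4 lists the gap lies highest and the H3K4me1 region lowest, at 100.3 and 18.1 sites per Mb for either replicate.

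Gaps also held more EHF sites per base than the H3K27ac-marked DNA on the far sides of the H3K4me1 regions. The density of 100.3 per Mb in gaps stood against 33.1 per Mb in outer parts (24.9 to 43.2), a ratio of 3.03 (2.25 to 4.14; exact conditional binomial test, adjusted p = 3.5e-16). It was 2.69 (1.64 to 4.61) in replicate 1, 3.01 (2.20 to 4.18) in replicate 2 and 2.50 (1.40 to 4.74) for shared sites. The outer parts are near the ends of the H3K27ac regions, a place that is taken up below.

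The change in density came close to the gap edge, as drawn by the caller from windows of 500 bp. In the last 100 bp of H3K4me1 before a gap the density was 30.9 per Mb (16 to 53.9, 12 sites), and in each of the 4 steps of 100 bp further into the H3K4me1 region it was 10.7 to 17.2 per Mb. In the first 100 bp of the gap it was 71.5 per Mb (47.5 to 103, 28 sites) and in the next 100 bp 133 per Mb (99.2 to 174, 52 sites). From 200 to 500 bp into the gap it stayed between 108 and 115 per Mb, with overlapping intervals. Further in, up to 1000 bp, it varied on fewer sites. It was lowest at 500 to 600 bp, with 63.6 per Mb (32.9 to 111, 12 sites), and highest at 800 to 900 bp, with 121 per Mb (60.2 to 216, 11 sites). Of the 262 sites with their centre in a gap, 246 (93.9%) lay in it with their whole span. Their centres were a median of 334 bp from the nearest gap edge (quartiles 165 and 607 bp).

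**Figure D2:**
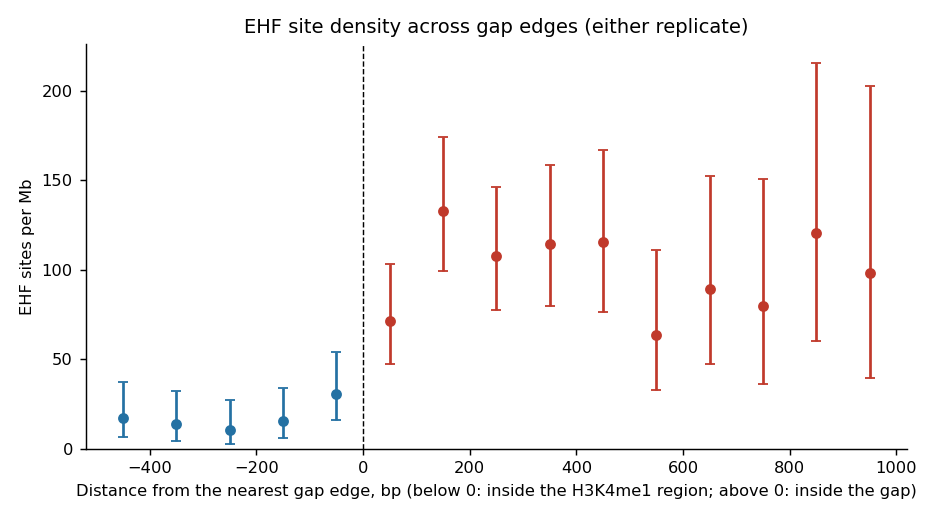
EHF sites of either replicate per Mb in steps of 100 bp from the nearest gap edge, with the H3K4me1 side below 0 and the gap side above 0; bars are exact Poisson 95% intervals. Density is 30.9 per Mb in the step before the edge, 71.5 in the step after it and 133 in the next.

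Each gap was also divided into 3 equal lengths. The middle length held 109 sites, or 125 per Mb (103 to 151), and the outer lengths together 153, or 87.9 per Mb (74.6 to 103), a ratio of 1.42 (1.10 to 1.83; exact conditional binomial test, adjusted p = 0.0088). In replicate 2 the ratio was 1.42 (1.08 to 1.85, adjusted p = 0.013 by the same exact test). In replicate 1, with 37 and 49 sites, it was 1.51 (0.956 to 2.36, adjusted p = 0.08 by the exact test), and for shared sites it was 1.63 (0.944 to 2.80, adjusted p = 0.089 by the exact test), so neither passed the threshold. Place in the H3K27ac region was not matched here. The middle of a gap tended to lie near the middle of the H3K27ac region, where sites were also denser, so the 2 cannot be told apart.

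EHF sites were denser toward the middle of H3K27ac regions under 8000 bp, whether these held several, 1 or no H3K4me1 regions. Each such region was therefore divided into 3 equal lengths, and the parts were compared within the same length. This matches place only roughly. A gap always has an H3K4me1 region between it and the end of the H3K27ac region, whereas outer parts reach that end. Any effect of place within a length was not removed. In the middle length of the region, called its middle, the density was 125 per Mb in gaps (107 to 145), 65.5 in outer parts (34.9 to 112) and 25.9 in H3K4me1 regions (15.1 to 41.5). In the outer lengths, called its ends, it was 69.6 in gaps (55.3 to 86.5), 28.6 in outer parts (20.5 to 38.8) and 15.5 in H3K4me1 regions (10.5 to 22). The ratio of gaps to H3K4me1 regions was 4.82 (2.93 to 8.46) in the middle and 4.50 (2.94 to 7.04) in the ends, close to the 5.56 found without regard to place. Against outer parts the ratio was smaller in the middle, at 1.91 (1.09 to 3.66), than the 3.03 over the whole region, and it was 2.43 (1.65 to 3.63) in the ends. In single replicates the interval of the ratio to outer parts in the middle reached below 1, with 0.879 to 13.5 in replicate 1 and 0.997 to 3.36 in replicate 2.

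Gaps were next set against the middle and the ends of H3K27ac regions with 1 or no H3K4me1 region. Width and score were not matched here. Median widths were 3739 bp for regions with several H3K4me1 regions, 1611 bp with 1 and 1126 bp with none. Median H3K27ac scores per kb were 44.1, 28.9 and 26.0. The bases compared with gaps also include the very ends of H3K27ac regions, which gaps do not reach. In the middle, gaps held 125 EHF sites per Mb, against 127 per Mb (117 to 138) in the bases beside the H3K4me1 region of regions with 1. The ratio was 0.982 (0.825 to 1.16), so no difference between a gap and H3K27ac-marked DNA beside a single H3K4me1 region was detectable there beyond counting error. In the ends gaps held 69.6 per Mb, against 42.7 beside the single H3K4me1 region, a ratio of 1.63 (1.26 to 2.08). Compared with H3K27ac regions that had no H3K4me1, gaps held more sites in the middle, at 125 against 89.4 per Mb (ratio 1.40, 1.19 to 1.64), and in the ends, at 69.6 against 37.4 per Mb (ratio 1.86, 1.46 to 2.34).

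For sites of either replicate, H3K4me1-marked bases held fewer EHF sites than the bases beside them in both kinds of region. In the ends of regions with 1, bases beside held 2.08 times the density of H3K4me1 bases (1.64 to 2.66), and 2.20 times (1.70 to 2.88) in replicate 2. There replicate 1 gave 1.36 (0.896 to 2.10) and shared sites 1.25 (0.708 to 2.29), and both intervals include 1. In the middle H3K4me1-marked bases held 25.9 sites per Mb in regions with several H3K4me1 regions and 48.7 per Mb in regions with 1, a ratio of 0.533 (0.298 to 0.897). In replicate 2 this ratio was 0.561 (0.300 to 0.979). Replicate 1, with 6 and 27 such sites, gave 0.690 (0.233 to 1.70), and shared sites, with 4 and 11, gave 1.13 (0.262 to 3.81), and both intervals include 1. In the ends the densities were 15.5 and 20.6 per Mb, and the ratio of 0.752 (0.482 to 1.15) also includes 1.

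**Figure D3:**
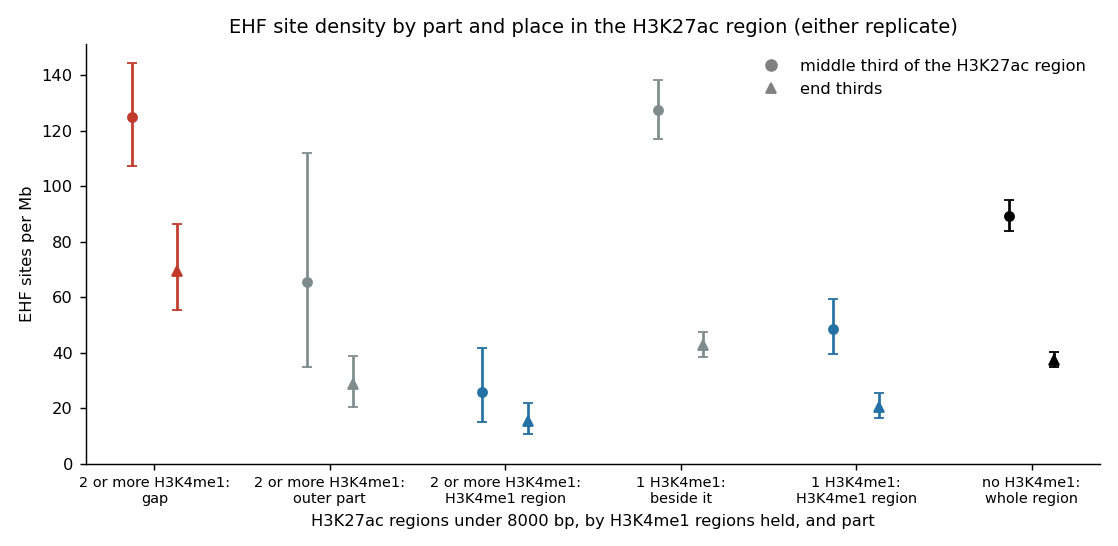
EHF sites of either replicate per Mb in the middle (circles) and the ends (triangles) of H3K27ac regions under 8000 bp, by the number of H3K4me1 regions held and by part; bars are exact Poisson 95% intervals. Gaps (125 per Mb) and bases beside a single H3K4me1 region (127 per Mb) lie at the same height in the middle, and H3K4me1 regions lie lowest in each class.

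Counted by region, 333 of the 1717 held an EHF site of either replicate (19.4%, 95% interval 17.5% to 21.3%), against 9.47% of all H3K27ac regions. For replicate 1 the share was 6.76%, against 2.54% of all; for replicate 2 it was 17.6%, against 8.71%; for shared sites it was 4.66%, against 1.65%. These regions are wider than most, and in the same width class the shares were closer. Among regions 4000 to under 8000 bp wide, 24.8% of those with several H3K4me1 regions held a site (21.8% to 28.0%), 26.2% of those with 1 (23.4% to 29.2%) and 20.3% of those with none (17.5% to 23.2%). Of the 333 regions, 235 had sites in gaps alone, 36 in H3K4me1 alone and 51 in outer parts alone, and 11 had sites in gaps and in another part.

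Per base, the whole of these regions held about as many EHF sites as other H3K27ac regions under 8000 bp. The density was 52.7 per Mb (47.5 to 58.5), against 57.7 per Mb in regions with 1 H3K4me1 region (ratio 0.915, 0.810 to 1.03; exact conditional binomial test, adjusted p = 0.18) and 54.8 per Mb in those with none (ratio 0.963, 0.858 to 1.08; exact conditional binomial test, adjusted p = 0.53). The replicates differed on the second comparison. In replicate 1 the regions with several H3K4me1 regions held 17.7 per Mb, against 11.4 per Mb in regions with none, a ratio of 1.55 (1.25 to 1.91; exact test, adjusted p = 7.8e-05). For shared sites the ratio was 1.61 (1.24 to 2.07; exact test, adjusted p = 6.8e-04). In replicate 2 it was 0.925 (0.819 to 1.04; exact test, adjusted p = 0.24). By width class, the replicate 1 ratio was 1.51 (1.04 to 2.15) at 2000 to under 4000 bp and 1.39 (0.962 to 2.03) at 4000 to under 8000 bp. The ratio for shared sites was 1.99 (1.27 to 3.03) and 1.28 (0.804 to 2.06) in these classes. Under 2000 bp it was 1.63 (0.522 to 3.86) in replicate 1 and 2.28 (0.729 to 5.46) for shared sites. The intervals thus exclude 1 at 2000 to under 4000 bp only, and include it in the narrower and the wider class.

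Gaps inside the H3K27ac regions held many more EHF sites than gaps between H3K4me1 regions without H3K27ac. They were compared with 3789 gaps of 499 to 6606 bp between consecutive H3K4me1 regions that touched no H3K27ac region, which held 61 sites in 9703576 bases. The density was 100.3 per Mb in gaps inside the H3K27ac regions, against 6.29 per Mb (4.81 to 8.08) in gaps outside, a 16-fold difference (12.04 to 21.4; exact conditional binomial test, adjusted p = 5.6e-116). The ratio was 26.6 (14.5 to 53.5) in replicate 1 and 16.5 (12.2 to 22.7) in replicate 2. Gap width was not matched in these ratios, with a median of 1072 bp inside and 2028 bp outside. Ratios by width class are given below. Over all H3K27ac regions, with or without H3K4me1, sites of either replicate had a density of 54.6 per Mb (52.9 to 56.5). That also exceeds the density of gaps outside, so the contrast is not particular to gaps. By gap, 251 of the 1957 gaps inside held a site of either replicate (12.8%, 11.4% to 14.4%), against 7.09% of all 10393 gaps of this width range in the H3K4me1 list. A site of replicate 1 was held by 84 of them (4.29%), against 2.17% of all, a site of replicate 2 by 229 (11.7%), against 6.5%, and a shared site by 59 (3.01%), against 1.55%.

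Narrow gaps were the densest in EHF sites. Gaps of 500 to under 1000 bp held 155 sites per Mb inside the H3K27ac regions (126 to 189), against 24.2 per Mb outside H3K27ac (13.8 to 39.2), a ratio of 6.43 (3.77 to 11.7). At 1000 to under 2000 bp the densities were 87.5 (70.6 to 107) inside and 9.26 (4.93 to 15.8) outside, a ratio of 9.45 (5.26 to 18.4). At 2000 bp or more they were 76.9 (59.9 to 97.1) inside and 4.19 (2.87 to 5.92) outside, a ratio of 18.3 (11.9 to 28.8). The share of gaps with a site went the other way inside H3K27ac, with 11%, 11.8% and 20.6% from narrow to wide. Gaps with a site had a median width of 1206 bp and gaps without one 1055 bp.

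**Figure D4:**
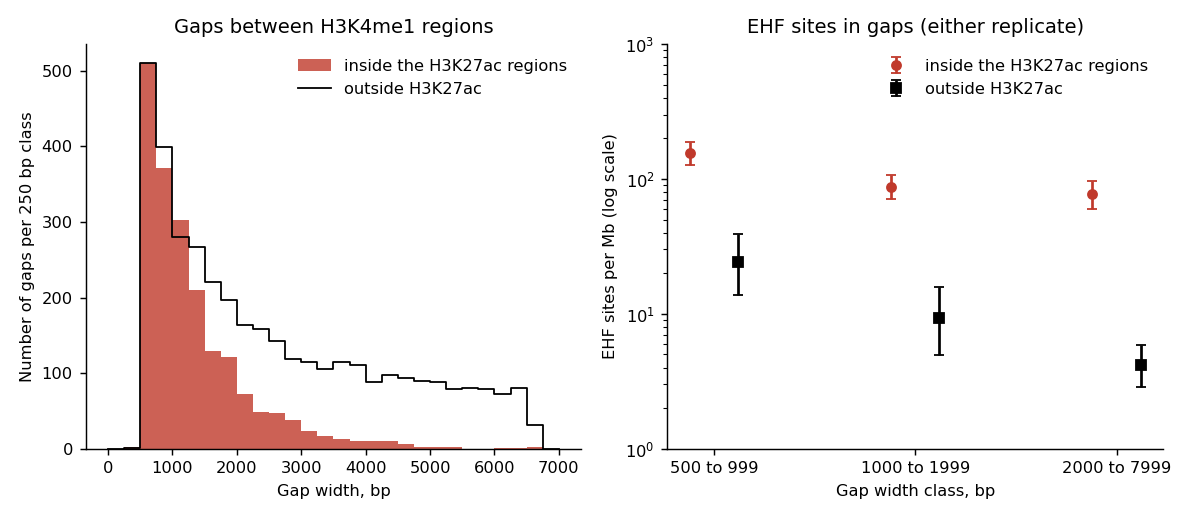
Left, number of gaps between H3K4me1 regions by width in classes of 250 bp, inside the 1717 H3K27ac regions (filled) and outside H3K27ac (line); right, EHF sites of either replicate per Mb (log scale) by gap width class, with exact Poisson 95% intervals. Gaps inside hold 155, 87.5 and 76.9 sites per Mb from narrow to wide, and those outside 24.2, 9.26 and 4.19.

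Most gaps held no EHF site, and most of those with one held no second. Of the 1957 gaps, 1706 (87.2%) held none. Of the 251 with a site, 241 held 1 site, 9 held 2 and 1 held 3; the caller kept EHF peaks of 1 list at least 250 or 300 bp apart, per the file headers. In the 219 regions with 3 or more H3K4me1 regions, 48 had a site in a gap and 4 had sites in more than 1 gap. The widest gap of such a region held 94.8 sites per Mb and its other gaps 98.6 per Mb, a ratio of 0.962 (0.542 to 1.74). The higher density in gaps than in H3K4me1 regions was found for 2 H3K4me1 regions, with a ratio of 5.60 (3.96 to 8.10), and for 3, with 5.09 (2.38 to 12.5). It was also found whether H3K4me1 ran past neither end of the H3K27ac region (4.10, 2.70 to 6.39), 1 end (7.39, 4.29 to 13.7) or both (9.06, 3.27 to 34.9). The 307 wider H3K27ac regions with 2 or more H3K4me1 regions gave 2.61 (1.70 to 4.15), with 75.5 sites per Mb in their gaps and 29.0 in their H3K4me1 regions; the difference from 5.56 was not tested.

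How often EHF peaks recurred between replicates differed by place and by score. Of the 86 replicate 1 sites in gaps, 60 were found in replicate 2 (69.8%, 58.9% to 79.2%), against 64.0% of the 774 in H3K27ac regions of other kinds (60.5% to 67.3%) and 29.6% of the 641 outside H3K27ac (26.1% to 33.3%). Of the 236 replicate 2 sites in gaps, 60 were found in replicate 1 (25.4%, 19.997% to 31.5%), against 17% of the 2904 in other H3K27ac regions (15.7% to 18.4%) and 9.61% of the 1987 outside (8.35% to 11%). In the outer parts of the same regions 15 of 20 replicate 1 sites (75%, 50.9% to 91.3%) and 15 of 49 replicate 2 sites (30.6%, 18.3% to 45.4%) recurred, with intervals that overlap those of gaps. At replicate 1 scores of 12 or more the share was 87.9% in gaps (71.8% to 96.6%) and 79.8% outside H3K27ac (69.9% to 87.6%), again with overlapping intervals. At scores of 9 to 11 it was 62.5% in gaps (45.8% to 77.3%) and 31.8% outside H3K27ac (26.3% to 37.6%). At scores of 0 to 8 it was 46.2% (19.2% to 74.9%) and 11.5% (8.01% to 15.9%). In these lower score classes the intervals did not overlap. In other H3K27ac regions the replicate 1 shares were close to those of gaps. They were 45.4% (38.8% to 52.1%) at scores of 0 to 8, 62.6% (57.3% to 67.8%) at 9 to 11 and 86.5% (81.0% to 90.8%) at 12 or more. At scores of 12 to 23 the replicate 2 shares were 24.6% in gaps (17.4% to 33.1%) and 18.1% in other H3K27ac regions (16.2% to 20.2%), with overlapping intervals. Outside H3K27ac the share at these scores was 15.4% (12.9% to 18.1%), which also overlaps that of gaps. At replicate 2 scores of 0 to 11 it was 14.6% in gaps (7.80% to 24.2%) and 3.76% outside H3K27ac (2.72% to 5.04%), without overlap. Other H3K27ac regions had 7.91% at these scores (6.42% to 9.61%), which overlaps that of gaps. Median scores were 11 in gaps and 10 in other H3K27ac regions for replicate 1, and 13 and 12 for replicate 2.

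Gaps with an EHF site lay in H3K27ac regions of higher score. The H3K27ac score per kb had a median of 54.8 (quartiles 41.7 and 74.5) around the 251 gaps with a site and 43.9 (32.7 and 58.0) around the 1706 without. The order was the same in each gap width class, with medians of 48.8 against 39.5 at 500 to under 1000 bp, 55.6 against 45.8 at 1000 to under 2000 bp and 69.3 against 53.0 at 2000 bp or more. The H3K4me1 regions beside the gap differed less, with a median score per kb of 26.5 against 24.3 and a median width of 781 bp against 704 bp. The quartile ranges overlap in each of these comparisons, which are descriptions without a test.

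The shared sites in gaps numbered 60, in 59 H3K27ac regions. The 10 regions named here are those whose gap site ranked best by score, averaged over the lists of replicates 1 and 2. Their gaps were 612 to 2869 bp wide, 7 of the 10 regions held 2 H3K4me1 regions and 3 held more, and in 6 the gap covered the H3K27ac centre. Their sites scored 13 to 28 in replicate 1 and 26 to 76 in replicate 2.

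The first region, at 58400490 to 58408404 on chromosome 20, was 7915 bp wide and held 4 H3K4me1 regions. Its site scored 28 in replicate 1 and 76 in replicate 2 and lay at 58406118 to 58406268, in a gap of 664 bp between H3K4me1 regions of 1386 and 1493 bp. The centre was 266 bp from one edge and 397 bp from the other, and no other EHF site lay in the region. The second, at 37747722 to 37750472 on chromosome 8, held its site of scores 27 and 46 in a gap of 612 bp, with the centre only 15 bp from the edge, so that the site also overlapped the next H3K4me1 region. The third, at 161032017 to 161035949 on chromosome 3, had a gap of 1881 bp, with the site of scores 21 and 36 lying 720 bp from the nearer edge. The fourth, at 216920087 to 216925600 on chromosome 2, had its site of scores 23 and 31 almost in the middle of a gap of 2520 bp, 1295 and 1224 bp from the edges.

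In 2 of the 10 the site lay at the side of a wide gap. On chromosome 18, at 47622946 to 47627215, the site of scores 18 and 29 was 164 bp from one edge of a gap of 2869 bp and 2704 bp from the other. On chromosome 14, at 92335749 to 92340585, it was 93 bp from the edge of a gap of 2030 bp, with scores of 16 and 30. The remaining 4 were at 71545108 to 71551412 and 2884917 to 2887953 on chromosome 16, 47611668 to 47618974 on chromosome 7 and 101879739 to 101883135 on chromosome 8. Their gaps were 1016, 814, 883 and 1335 bp wide and their sites lay 431, 246, 287 and 576 bp from the nearer edge. The first of these 4 had another EHF site in an H3K4me1 region, and the second had another EHF site in the same gap.

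**Figure D5:**
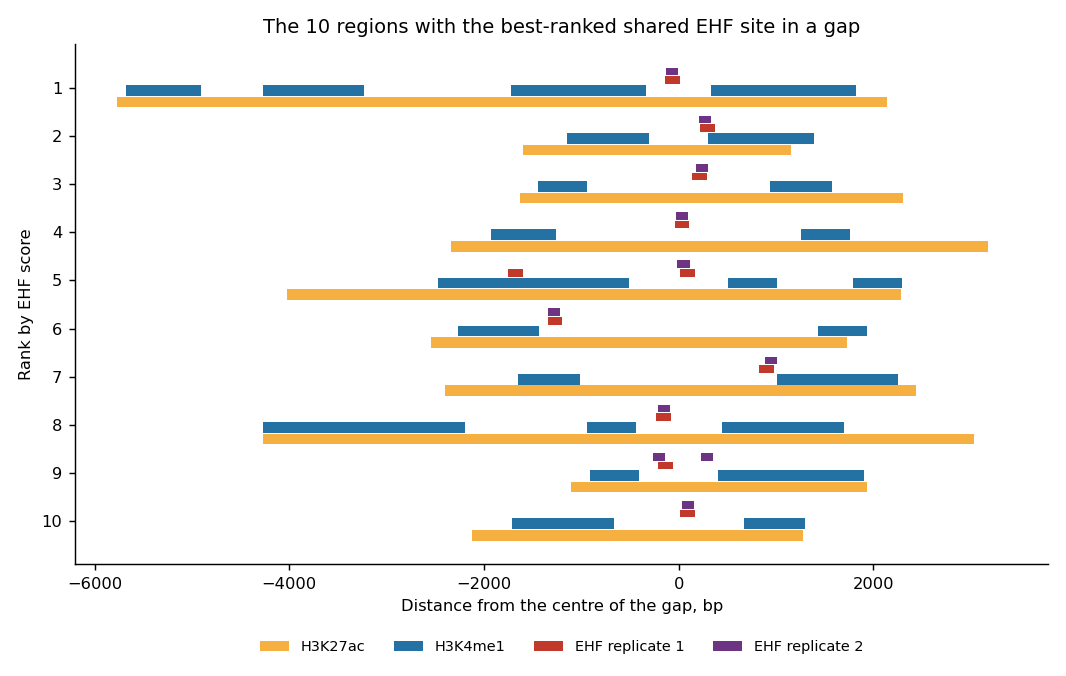
The 10 H3K27ac regions with the best-ranked shared EHF site in a gap, from rank 1 at the top, drawn to scale around the centre of that gap (x axis, bp); bars show the H3K27ac region, its H3K4me1 regions and the EHF peaks of each replicate. The centres of the shared sites lie between H3K4me1 regions, from 15 to 1224 bp from the nearer gap edge, and the site of rank 2 also runs into the next H3K4me1 region.

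Other regions were named for their shape, and should be read against the 19.4% of all 1717 that held a site and the 7 of 20 (35%, 15.4% to 59.2%) among those with 4 or more H3K4me1 regions. The region with the most H3K4me1 regions, at 56589034 to 56596728 on chromosome 6, held 5 of them and no site. Of the next 4, each with 4 H3K4me1 regions, the one on chromosome 20 named above held a site in a gap and the other three held none. The widest gap, of 6608 bp, was in the region at 77422286 to 77430053 on chromosome 14 and held no site. Of the 5 regions with the widest gaps, those at 174574457 to 174582346 on chromosome 3 and at 151481605 to 151488967 on chromosome 1 held a site in the gap, of 6507 and 6116 bp.

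A single region lay in a stretch of chromosome 17 from 37.5 to 39 Mb where scores ran high. The median H3K27ac score was 596.5 for the 34 regions there and 38 elsewhere, and the median EHF replicate 2 score was 35.5 for the 44 peaks there and 12 elsewhere. The region spans 37893138 to 37897853, with an H3K27ac score of 12558, or 2663 per kb, the highest of the 1717. Its gap of 3708 bp was the one with 3 EHF sites, all of replicate 2, with scores of 149, 264 and 156, and replicate 1 had no peak in it. Without the stretch the ratio of gap to H3K4me1 density was 5.50.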

How the data were processed

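EHF, H3K4me1 and H3K27ac were measured by ChIP-seq in Calu-3 cells. The authors' tools and build were Bowtie 1.0.0, HOMER 1.2 and hg19, as listed in the submitters' processing notes. Per the file headers, HOMER findPeaks called each library separately at a false discovery rate of 0.01, with 4-fold over input at a Poisson p of 1e-04, and replicates were not pooled. Windows were 500 bp for the marks, stitched into regions, and 150 or 125 bp for EHF. The deposited score is, per the file headers, a normalized tag count for a library scaled to 10000000 tags; it carries no error and no input, and was used only to describe, rank and filter intervals.

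Overlaps, densities and tests were computed from the deposited lists in Python 3.11.15 (numpy 2.4.6, scipy 1.17.1). Overlap meant 1 bp. Site densities were compared by a two-sided exact conditional binomial test of 2 Poisson rates, adjusted by Benjamini-Hochberg over 6 tests. The code was also run on simulated sites placed independently of each other. That run checks the computation only, since sites of these libraries are not independent. Regions were named by rank of EHF score, number of H3K4me1 regions and gap width. Members, parts and tests were chosen with earlier results of these data known. The comparison of the middle and ends of the H3K27ac region and the merging across 1000 bp were added after seeing the data. Each p describes positions within these libraries, not the spread between cultures.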

Additional observations from a re-analysis of the deposited data

How the results depend on the processing

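The higher EHF density in gaps than in H3K4me1 regions kept its direction and passed the threshold under all 13 alternatives run, with ratios of 3.39 (H3K4me1 merged across up to 1000 bp) to 7.63 (shared sites), as did gaps against outer parts, at 1.91 to 3.48. Member gaps against gaps outside H3K27ac, not matched for gap width, did so under all 11 run, at 12.1 to 55.7. The higher density in the middle of gaps than toward their edges lost its call with shared sites (1.63); leaving out a replicate gave 1.42 to 1.51, with the call lost without replicate 2. The comparisons of whole regions were the least stable. Against regions with 1 H3K4me1 region, the ratio of 0.915 became 1.22 with shared sites, 1.03 with H3K4me1 regions at or above the median score, and 0.859 with merging across 1000 bp, where it passed (exact test, adjusted p = 0.046, against 0.064 to 0.88 in the other alternatives); leaving out a replicate gave 0.926 to 1.06. Against regions with none, 0.963 became 1.61 with shared sites, 1.09 with EHF peaks at or above the median score and 1.20 with H3K4me1 at or above the median score; leaving out a replicate gave 0.925 to 1.55. The values 1.61, 1.20 and 1.55 passed the threshold. The cause was not tested.

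The number of regions was 868 with H3K4me1 regions at or above the median score and 998 with merging across 1000 bp, against 1717. The median gap became 975 bp with a width limit of 5000 bp and 1536 bp with that merging. The share of regions with an EHF site was 4.66% with shared sites, 13.2% with EHF peaks at or above the median score, 24.4% with H3K4me1 at or above it and 16.4% with the limit of 5000 bp; leaving out a replicate gave 6.76% to 17.6%. No paired analysis was possible because each mark has 1 library and the EHF replicates have no numbered partner. EHF replicate 1, with 0.155% of its tags in peaks, limits what recurrence can show.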

Other observations

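By chromosome, regions with several H3K4me1 regions made up 1.01% (chromosome 13) to 9.02% (chromosome 18, 77 of 854, 95% interval 7.18% to 11.1%) of the H3K27ac regions under 8000 bp. EHF density was higher in gaps than in H3K4me1 regions on 22 of 23 chromosomes, the exception being X, with 2 sites in each. Some of the 22 rest on very few sites. Chromosome 19 had 1 site in each part (36.9 against 35.0 per Mb), and chromosomes 13 and 21 each had 2 in gaps and 0 in H3K4me1 regions. The share of these regions with an EHF site of either replicate in a gap was highest among chromosomes with at least 30 of them on chromosome 20, at 9 of 38 (23.7%, 11.4% to 40.2%), and lowest on chromosome 9, at 4 of 54 (7.41%, 2.06% to 17.9%), with overlapping intervals. In all, 4.38% of the EHF sites of either replicate and 7.81% of the shared sites (95% interval 6.01% to 9.94%) lay in gaps of these regions.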
